A study of Homo sapiens with 18 samples.

Results

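EPO, VEGFA, VEGFB, PGF, ADM, STC2 and EDN1 are genes of secreted proteins that are studied in low oxygen. They were taken by their symbols from a count table of 61806 genes, in which all 7 were found, and all 7 were among the 19743 genes that passed the filter on low counts. The libraries were made from HepG2, a human hepatoma cell line, and from APOA4-KO, a HepG2 line edited at the APOA4 gene with CRISPR-Cas9. Each line was sampled at 0 h, in 21% oxygen, and once it had spent 24 h or 48 h in 1% oxygen, which makes 6 groups of 3 libraries and 18 libraries in all. APOA4-KO cells were grown from single colonies mutated in both alleles, and the sources used here do not give the number of clones sequenced. No cells stayed at 21% oxygen for 24 h or 48 h, so the hypoxia and the time in culture cannot be told apart, and neither can the edit and other differences between the lines. The study's methods speak of 3 independent experiments in general, but do not say that the 3 libraries of a group came from separate cultures. The p-values therefore measure the spread between these libraries, which may be technical.

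When oxygen falls, hypoxia-inducible factors escape degradation and bind DNA at short sequences with the core RCGTG, where R is A or G. EPO, or erythropoietin, is the hormone that drives red blood cell formation, and the liver makes it before birth while the kidney takes over afterwards. VEGFA is the central growth factor of blood vessels, and VEGFB and PGF are relatives that bind the receptor FLT1. ADM encodes adrenomedullin and EDN1 encodes endothelin-1, peptides that relax and constrict vessels respectively, and STC2 is a secreted glycoprotein that limits growth factor signaling by inhibiting a protease of insulin-like growth factor binding proteins.

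Libraries held 76481820 to 91604947 counts in total, and the members had between 143 and 28964 counts in any library. Counts of 4 were over-represented 2.66 to 3.12 times against their neighbours in all 18 libraries, a pattern whose origin the sources used here do not state. APOA4 (ENSG00000110244), the edited gene, had counts in every library. Its 3 values at 0 h were 8.95, 9.67 and 8.46 CPM (counts per 1000000 after TMM scaling) in HepG2 and 8.35, 7.80 and 6.99 CPM in APOA4-KO. At 24 h they were 19.8, 19.8 and 21.03 CPM against 8.25, 7.51 and 8.04 CPM, and at 48 h 18.9, 19.9 and 21.7 CPM against 7.65, 8.54 and 8.44 CPM. APOA4-KO was below HepG2 at each time, with a log2 fold difference of -0.23 ± 0.081 (SE) at 0 h, -1.35 ± 0.081 at 24 h and -1.29 ± 0.081 at 48 h, with adjusted p of 0.0404, 6.58e-11 and 8.96e-11, and its deletion or mutation cannot be read from counts of the whole gene.

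All 7 hepatocyte markers were detected in every library, and their summed level lay between 43738 and 70628 CPM. The summed level of 4 endothelial markers was 8.44 to 16.3 CPM, with at most 2 of them at 0 in a library. The summed level of 4 stromal markers was 28.0 to 53.7 CPM, with at most 2 at 0. The 4 blood markers varied within the groups. Their sum was 36.6 to 324 CPM in HepG2 at 0 h, 60.5 to 233 CPM at 24 h and 129 to 338 CPM at 48 h. The same sums in APOA4-KO were 127 to 386 CPM, 47.2 to 101 CPM and 213 to 454 CPM. HBB, the beta chain of hemoglobin, spanned 0.410 to 242 CPM among the 3 HepG2 libraries at 0 h, in which VEGFA spanned 48.7 to 51.2 CPM and STC2 61.5 to 67.6 CPM. APOA4-KO at 24 h lay below APOA4-KO at 0 h and 48 h in the sum, with HBB at 0.533 to 38.9 CPM and CD68, a macrophage marker, at 44.2 to 49.2 CPM. The source of these marker counts and their part in the results below were not tested.

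The starts of the members hold the core of hypoxia-inducible factors at different places. Promoter windows of RefSeq (build GRCh38.p14), from 250 bases before to 50 after a start, were at hand for 6 of the 7 genes, with 9 windows in all, and VEGFA was not matched. The words ACGTG and GCGTG were searched on both strands (their reverse complements are CACGT and CACGC, and neither word can lie within the other). ACGTG was found in 21.4% and GCGTG in 36.5% of 35116 windows of this length, and either in 48.4%, so a match is common and is given as a description only. The windows shown are chr7:100720218-100720517 (EPO, plus strand), chr11:64234334-64234633 (VEGFB, plus strand), chr14:74955548-74955847 (PGF, minus strand), chr11:10304823-10305122 (ADM, plus strand), chr5:173328365-173328664 (STC2, minus strand) and chr6:12290111-12290410 (EDN1, plus strand). From each, a stretch of 29 bases around a match is printed 5′ to 3′ on the strand of the gene, with the matched core in capitals, since these are the letters in which the members can be compared.
EPO: tttcccagatagCACGCtccgccagtccc
VEGFB: ccggtggggagcGCGTGtctgggtcacat
PGF: gagagcccctcgCACGCactgcgggctcc
ADM: gagcaggagcgcGCGTGgctgaggaaaga
STC2: ctcatacacacgCACGCaaacgcgtggcc
EDN1: tatctccggctgCACGTtgcctgttggtg
In EPO the core began at base 15 after the start, in VEGFB 61 bases before it, in PGF 162, in ADM 101, in STC2 231 and in EDN1 123. PGF had 2 windows, and the same PGF match began at base 6 after the start of the window not shown. The STC2 window held 3 matches, and 2 of these shared 1 base. All 3 lie in the printed stretch, where only the match that began 231 bases before the start is in capitals. Of the 3 EDN1 windows, the stretch shown is from the window whose start lies 2 bases from a transcript start of GENCODE 29, another window held 3 matches and the remaining window held none. EDN1 was the only member with the word ACGTG in these windows. The EPO start of RefSeq lies 332 bases from the nearest start in GENCODE 29, and the well-known hypoxia enhancer of EPO lies beyond the end of the gene, outside the window.

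Among the members, ADM had the largest rise to 48 h in both lines and EDN1 the largest rise to 24 h in HepG2. The 250 bases before their starts are shown for this reason, again with matches in capitals. They lie at chr11:10304823-10305072 and chr6:12290111-12290360, both on the plus strand.
ADM: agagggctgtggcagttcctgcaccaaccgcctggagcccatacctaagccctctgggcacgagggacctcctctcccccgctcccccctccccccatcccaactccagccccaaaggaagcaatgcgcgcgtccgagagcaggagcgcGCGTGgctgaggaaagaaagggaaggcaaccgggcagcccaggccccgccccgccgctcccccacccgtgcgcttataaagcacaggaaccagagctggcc
EDN1: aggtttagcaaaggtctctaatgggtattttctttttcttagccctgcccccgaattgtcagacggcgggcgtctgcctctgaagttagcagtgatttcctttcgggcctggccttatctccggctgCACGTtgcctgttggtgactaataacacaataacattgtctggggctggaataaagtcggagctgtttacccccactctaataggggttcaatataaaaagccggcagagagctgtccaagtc

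On GRCh38, as GENCODE 29 annotates it, the gene bodies are at chr7:100720800-100723700 (EPO, ENSG00000130427), chr6:43770184-43786487 (VEGFA, ENSG00000112715), chr11:64234538-64238793 (VEGFB, ENSG00000173511) and chr14:74941834-74955784 (PGF, ENSG00000119630). The others are at chr11:10304680-10307397 (ADM, ENSG00000148926), chr5:173314713-173329503 (STC2, ENSG00000113739) and chr6:12290363-12297194 (EDN1, ENSG00000078401). The exons of 6 members overlapped no exon of another gene. Of the 14431 exonic bases of VEGFA, 188 bases (1.30%) overlapped a gene on the opposite strand, and the sources used here do not say whether the counting used the strand.

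Levels of different genes are compared only per length, in the FPKM deposited by the authors. Before hypoxia in HepG2, STC2 had the highest level, 12.9 ± 0.683 FPKM (SD, n = 3). VEGFB followed with 7.46 ± 0.180 FPKM and PGF with 4.73 ± 0.162 FPKM. VEGFA with 3.43 ± 0.0929, ADM with 3.19 ± 0.215 and EPO with 3.16 ± 0.501 FPKM lay close together, and their libraries overlapped, and EDN1 was lowest with 0.950 ± 0.173 FPKM. In APOA4-KO after 48 h the order had changed. ADM with 40.8 ± 1.58 FPKM and STC2 with 37.1 ± 0.517 FPKM were highest, VEGFA with 23.9 ± 0.606 FPKM came next, then VEGFB with 11.9 ± 0.778, EDN1 with 9.31 ± 0.378, EPO with 7.14 ± 0.520 and PGF with 3.11 ± 0.273 FPKM. The FPKM of VEGFA rests on a length of about 14758 bases, more than 2 times that of any other member, since the length joins the exons of all its transcripts.

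**Figure D1:**
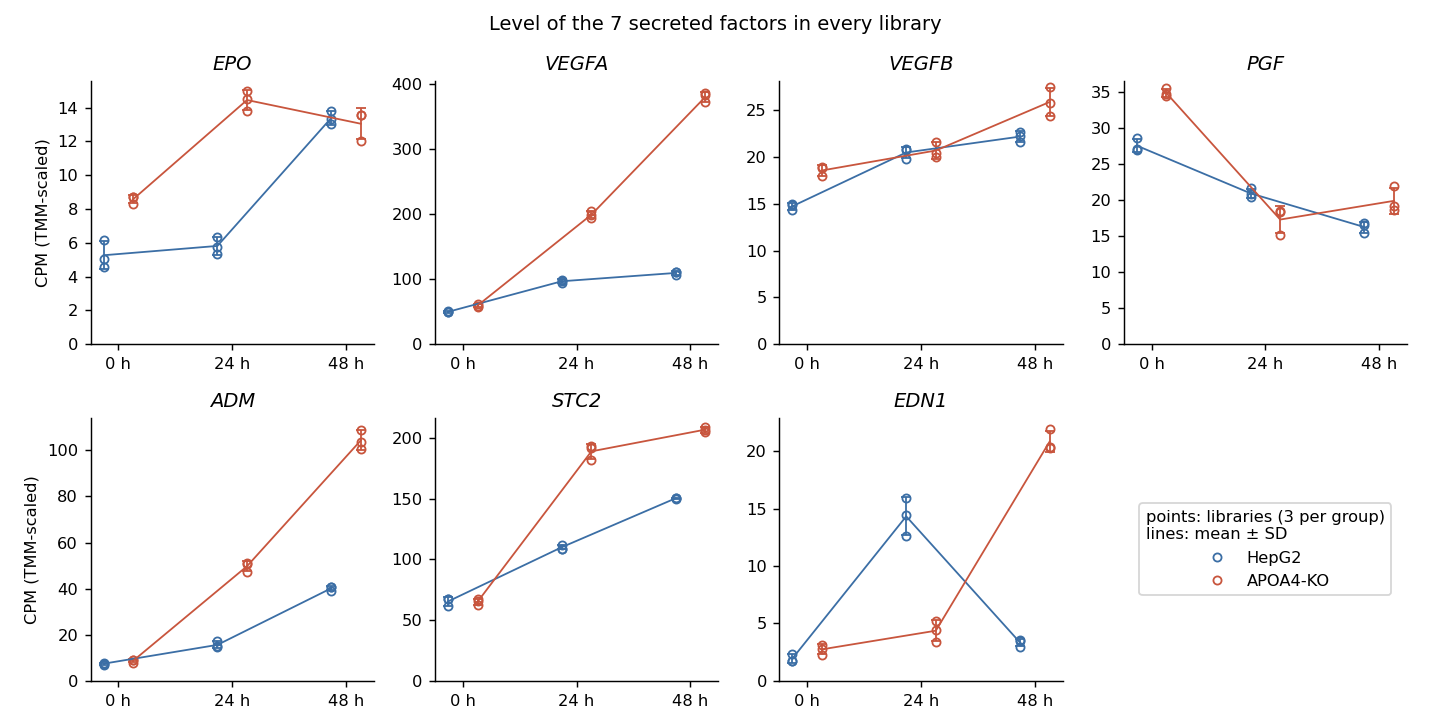
Level of the 7 genes in CPM (counts per 1000000 after TMM scaling, linear axes from 0) at 0 h, 24 h and 48 h. Circles are libraries, lines join the means and bars are SD (n = 3). VEGFA, ADM and STC2 rose in both lines and rose further in APOA4-KO, PGF fell in both, EPO means were 13.4 and 13.05 CPM in the lines at 48 h, and the peak of EDN1 came at 24 h in HepG2 but at 48 h in the edited line.

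The changes from 0 h in each line compare its levels before and after time in hypoxia, which is also time in culture. In HepG2 at 24 h, 5 members were higher, PGF was lower, and EPO did not pass the limit of an adjusted p under 0.05. This limit was passed by 29.6% of all genes tested. EDN1 and ADM also passed the limit of an absolute log2 fold change of 1, as did 3.08% of all genes, though ADM did so by a small margin. At 48 h in HepG2, 6 members were higher and PGF was lower, where 27.7% of all genes passed, and EPO, VEGFA, ADM and STC2 passed both limits, where 2.18% of all genes did. Between 24 h and 48 h in HepG2, EPO, VEGFA, ADM and STC2 rose, PGF and EDN1 fell, and VEGFB did not pass. The adjusted p was passed by 30.5% of all genes in that comparison, and both limits by 2.12%, among them EPO and ADM upwards and EDN1 downwards. The median log2 fold change of the members was 0.75 at 24 h and 1.14 at 48 h, beside -0.035 and -0.027 over all genes.

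In APOA4-KO, 6 members were higher and PGF was lower at 24 h and again at 48 h. At 24 h, 44.4% of all genes passed the adjusted p and 5.88% passed both limits, and of the members VEGFA, ADM and STC2 upwards and PGF downwards passed both, PGF by a margin that most replicates left out removed. At 48 h, 49.9% of all genes passed the adjusted p and 12.2% both limits, and VEGFA, ADM, STC2 and EDN1 passed both. Between 24 h and 48 h, 6 members rose and EPO did not pass, where 41.3% of all genes passed the adjusted p. ADM and EDN1 passed both limits there, as did 5.66% of all genes. The median log2 fold change of the members was 0.75 at 24 h and 1.67 at 48 h, beside -0.0096 and -0.068 over all genes. In a bulk library, a lower level in each cell and fewer cells making the transcript cannot be told apart.

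**Figure D2:**
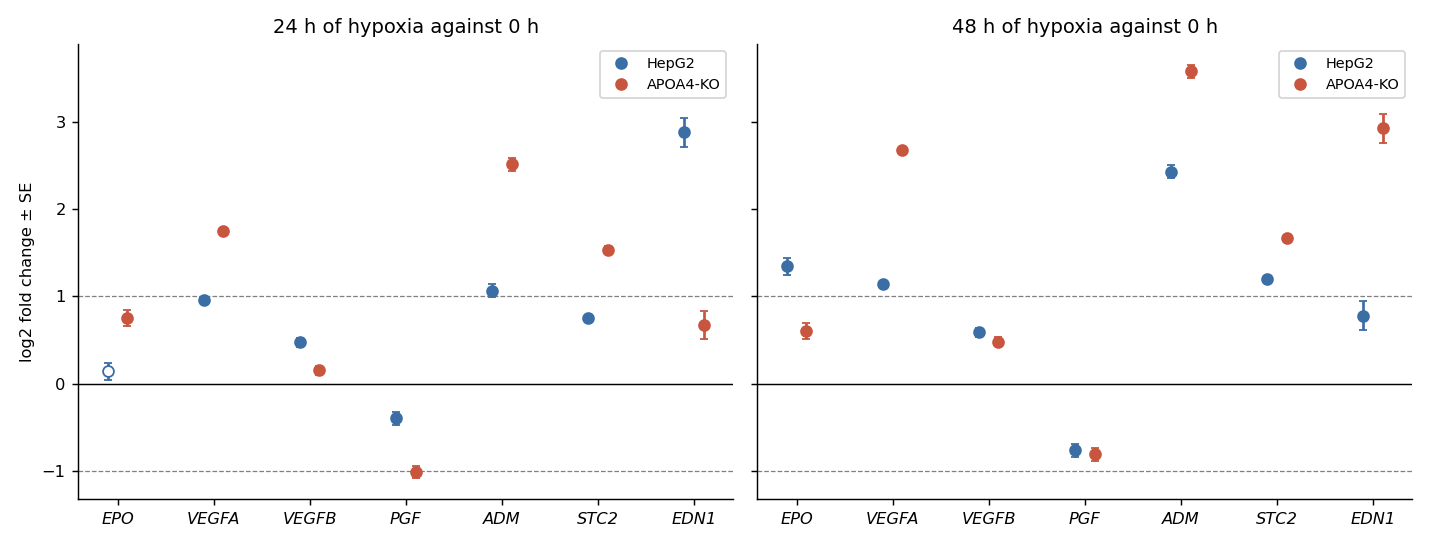
Log2 fold change (linear axis, ± SE) of each gene at 24 h and at 48 h against 0 h, in HepG2 and in APOA4-KO. Filled points passed an adjusted p under 0.05, the open point did not, and dashed lines mark an absolute log2 fold change of 1. EPO in HepG2 at 24 h is the open point at 0.14, and PGF is the member below 0 in both lines at both times.

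The lines were compared at each time to see how the level of each factor differed with the edited line. At 0 h, 6 members were higher in APOA4-KO and STC2 did not pass, where 30.5% of all genes passed the adjusted p, and the largest member difference, that of EPO, stayed under the limit on the fold, while 4.31% of all genes passed both limits. At 24 h, EPO, VEGFA, ADM and STC2 were higher, PGF and EDN1 were lower and VEGFB did not pass, where 48.1% of all genes passed. EPO, VEGFA and ADM upwards and EDN1 downwards passed both limits, as did 7.77% of all genes. At 48 h, 6 members were higher and EPO did not pass, where 50.8% of all genes passed, and VEGFA, ADM and EDN1 passed both limits, where 13.6% of all genes did. The 3 comparisons of the lines share no libraries with each other, but each shares its libraries with the changes over time.

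Whether the change from 0 h differed between the lines was tested by the difference of the changes. All 7 members passed at 24 h, where 32.2% of all genes did. The change was more positive in APOA4-KO for EPO, VEGFA, ADM and STC2 and less positive or more negative for VEGFB, PGF and EDN1, and ADM and EDN1 passed both limits, as did 2.59% of all genes. At 48 h, 5 members passed, where 36.4% of all genes did. The change was larger in APOA4-KO for VEGFA, ADM, STC2 and EDN1 and smaller for EPO. VEGFA, ADM and EDN1 passed both limits, where 7.42% of all genes did.

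**Figure D3:**
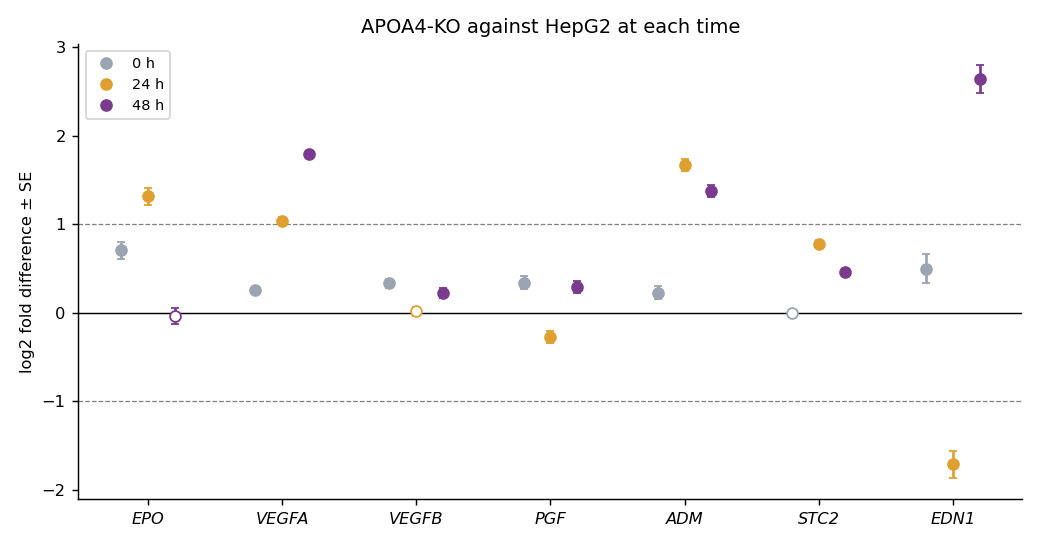
Log2 fold difference of APOA4-KO against HepG2 (linear axis, ± SE) of each gene at 0 h, 24 h and 48 h. Filled points passed an adjusted p under 0.05, open points did not, and dashed lines mark an absolute difference of 1. EDN1 is at -1.71 at 24 h and at 2.64 at 48 h, whereas EPO is at 1.31 at 24 h and near 0 at 48 h.

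EPO, the hormone, came on later in HepG2 than in APOA4-KO. In HepG2 its 3 libraries had 5.06, 4.55 and 6.18 CPM at 0 h, 5.33, 5.77 and 6.35 CPM at 24 h and 13.1, 13.3 and 13.8 CPM at 48 h. The libraries at 0 h and 24 h overlapped, and those at 48 h were all above both. In APOA4-KO they had 8.72, 8.33 and 8.70 CPM at 0 h, 13.8, 15.0 and 14.5 CPM at 24 h and 13.5, 13.6 and 12.001 CPM at 48 h, so that all hypoxic libraries lay above those at 0 h. For EPO in HepG2 the log2 fold change to 24 h was 0.14 ± 0.099 (SE), with a 95% interval of -0.063 to 0.35 (adjusted p = 0.33). Its rise to 48 h, 1.35 ± 0.098 or 2.54-fold, passed (adjusted p = 5.8e-09). Without HepG2 library 3 at 0 h, which was the highest of its group, the change at 24 h was 0.28 and passed, with an adjusted p of 0.037. In APOA4-KO, EPO rose by 0.75 ± 0.096 at 24 h and 0.60 ± 0.096 at 48 h (adjusted p of 2.18e-06 and 2.87e-05), and the change between 24 h and 48 h was -0.15 ± 0.095 (adjusted p = 0.244).

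APOA4-KO thus held more EPO RNA than HepG2 before hypoxia, by a log2 fold difference of 0.70 ± 0.098 (adjusted p = 1.6e-05), and at 24 h, by 1.31 ± 0.098 (adjusted p = 1.38e-09). At 48 h the difference was -0.037 ± 0.095 (adjusted p = 0.786), with a 95% interval of -0.24 to 0.16, and the libraries of the lines overlapped. In the order of the 6 groups, HepG2 at 0 h and 24 h were lowest and did not separate, APOA4-KO at 0 h followed, APOA4-KO and HepG2 at 48 h did not separate, and APOA4-KO at 24 h was highest. EPO was the only member whose change to 48 h was smaller in APOA4-KO by a difference that passed, -0.74 ± 0.14 (adjusted p = 0.000229), after having been larger at 24 h by 0.61 ± 0.14 (adjusted p = 0.00181).

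VEGFA, the vessel growth factor, was the member in which the 6 groups separated fully. In HepG2 it had 48.7, 51.2 and 49.1 CPM at 0 h, 99.2, 97.4 and 93.4 CPM at 24 h and 106, 110.5 and 111 CPM at 48 h. Most of the rise in HepG2 was in place at 24 h. In APOA4-KO it had 58.7, 62.3 and 57.2 CPM at 0 h, 194, 199 and 204 CPM at 24 h and 386, 382 and 371 CPM at 48 h, so that it went on rising. No neighbours in the order of the groups overlapped, from HepG2 at 0 h, APOA4-KO at 0 h and HepG2 at 24 h and 48 h to APOA4-KO at 24 h and 48 h. The log2 fold change in HepG2 was 0.96 ± 0.035 at 24 h and 1.14 ± 0.035 at 48 h (adjusted p of 2e-13 and 2.08e-14), with 0.18 ± 0.035 between them (adjusted p = 0.00053). In APOA4-KO it was 1.74 ± 0.036 (adjusted p = 1.77e-17) and 2.68 ± 0.037 (adjusted p = 2.94e-20), and the rise of 0.93 ± 0.035 between 24 h and 48 h also passed (adjusted p = 1.89e-13).

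The difference of the lines in VEGFA grew with time. It was 1.19-fold at 0 h (log2 fold difference 0.26 ± 0.035, adjusted p = 1.42e-05), 2.06-fold at 24 h (1.04 ± 0.035, adjusted p = 2.39e-14) and 3.47-fold at 48 h (1.79 ± 0.036, adjusted p = 5.97e-18). The changes from 0 h differed between the lines by 0.78 ± 0.050 at 24 h and 1.54 ± 0.050 at 48 h (adjusted p of 9.63e-10 and 3.4e-14).

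The relatives of VEGFA behaved otherwise. VEGFB changed least among the members that rose. In HepG2 it had 15.0, 14.9 and 14.3 CPM at 0 h, 20.8, 20.9 and 19.8 CPM at 24 h and 22.7, 21.6 and 22.3 CPM at 48 h. In APOA4-KO it had 19.0, 18.8 and 17.9 CPM, 19.99, 20.4 and 21.7 CPM and 27.5, 25.8 and 24.4 CPM. The 2 lines overlapped at 24 h, and the libraries of HepG2 at 24 h and 48 h did not overlap each other. The log2 fold changes of VEGFB in HepG2 were 0.47 ± 0.052 at 24 h and 0.59 ± 0.052 at 48 h (adjusted p of 8.84e-07 and 7.61e-08). In APOA4-KO they were 0.16 ± 0.052 (adjusted p = 0.019) and 0.48 ± 0.052 (adjusted p = 2.36e-07), and the smaller of these was lost with scaling by library size alone (0.13, adjusted p = 0.0535). The change at 24 h was smaller in APOA4-KO by 0.32 ± 0.074 (adjusted p = 0.00217), and at 48 h the difference of -0.11 ± 0.073 did not pass (adjusted p = 0.28), except with scaling by library size alone (-0.28, adjusted p = 0.00437). Against HepG2, APOA4-KO was higher by 0.33 ± 0.052 at 0 h and 0.22 ± 0.052 at 48 h (adjusted p of 6.31e-05 and 0.00127), of which the latter was lost with library size alone (0.073, adjusted p = 0.262). At 24 h the difference was 0.015 ± 0.052 (adjusted p = 0.861), with a 95% interval of -0.094 to 0.12.

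PGF, placental growth factor, was the member that fell. In HepG2 it had 28.6, 27.0 and 27.0 CPM at 0 h, 20.8, 21.6 and 20.4 CPM at 24 h and 15.4, 16.8 and 16.5 CPM at 48 h. In APOA4-KO it had 35.5, 34.4 and 34.7 CPM, then 18.3, 15.2 and 18.4 CPM and then 18.6, 21.9 and 19.1 CPM. The libraries at 0 h were above those in hypoxia in both lines without overlap. The log2 fold changes of PGF in HepG2 were -0.40 ± 0.071 at 24 h and -0.76 ± 0.071 at 48 h (adjusted p of 0.00022 and 1.5e-07), and those in APOA4-KO were -1.01 ± 0.071 and -0.81 ± 0.071 (adjusted p of 6.78e-10 and 1.29e-08). The value of PGF in APOA4-KO at 24 h fell short of the limit on the fold without any 1 of the APOA4-KO libraries at 0 h or without library 2 of 24 h, where it was -0.9999 to -0.92, and also with no filter (-0.994) and with its groups fitted alone (-0.988). The rise of 0.20 ± 0.071 between 24 h and 48 h in APOA4-KO (adjusted p = 0.03) was not stable, since it did not pass without APOA4-KO library 2 of 24 h (0.12, adjusted p = 0.188) or without library 2 of 48 h (0.13, adjusted p = 0.194). It also did not pass with library size alone (0.072, adjusted p = 0.457), with no filter (adjusted p = 0.0545) or with its groups fitted alone (adjusted p = 0.148). The fall at 24 h was larger in APOA4-KO by a difference of -0.61 ± 0.10 (adjusted p = 7.85e-05), whereas at 48 h the difference was -0.047 ± 0.10 (adjusted p = 0.782, 95% interval -0.26 to 0.16). The lines differed in PGF by 0.34 ± 0.070 at 0 h (adjusted p = 0.000943), -0.27 ± 0.071 at 24 h and 0.29 ± 0.071 at 48 h (adjusted p of 0.0032 and 0.00194), and the last of these was lost with library size alone (0.14, adjusted p = 0.104).

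ADM, the vessel-relaxing peptide, had the largest rise at 48 h in both lines. In HepG2 it had 7.47, 6.94 and 7.96 CPM at 0 h, 17.3, 14.5 and 15.1 CPM at 24 h and 40.6, 39.2 and 40.8 CPM at 48 h. In APOA4-KO it had 9.12, 9.18 and 7.88 CPM at 0 h, 47.3, 51.2 and 50.7 CPM at 24 h and 100.4, 109.005 and 104 CPM at 48 h. The lines overlapped at 0 h and were apart in hypoxia, and APOA4-KO at 24 h already lay above HepG2 at 48 h. ADM rose in HepG2 by 1.07 ± 0.071 and 2.43 ± 0.072 on the log2 scale to 24 h and 48 h (adjusted p of 1.15e-09 and 9.66e-15). In APOA4-KO it rose by 2.51 ± 0.071 and 3.58 ± 0.074, the latter 11.9-fold (adjusted p of 2.37e-15 and 9.65e-18). In HepG2 at 24 h, ADM fell short of the limit on the fold without HepG2 library 1 of 24 h (0.987) and with scaling by library size alone (0.994). ADM rose between 24 h and 48 h in HepG2 by 1.36 ± 0.068 (adjusted p = 2.59e-11) and in APOA4-KO by 1.07 ± 0.066 (adjusted p = 1.96e-10), and the latter was 0.939, under that limit, with library size alone. APOA4-KO was higher by 1.67 ± 0.069 at 24 h and 1.38 ± 0.067 at 48 h (adjusted p of 3.65e-13 and 2.17e-12), and the changes from 0 h differed by 1.44 ± 0.099 (adjusted p = 2.87e-09) and 1.15 ± 0.098 (adjusted p = 2.13e-08), of which the last was 0.978 with library size alone. At 0 h the difference of 0.23 ± 0.073 (adjusted p = 0.0234) was lost without either of the first 2 HepG2 libraries or either of the first 2 APOA4-KO libraries at 0 h, where the adjusted p was 0.0574 to 0.129 and the difference 0.17 to 0.23, and with these groups fitted alone (adjusted p = 0.0781).

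STC2, the glycoprotein with the highest FPKM in HepG2 at 0 h, was the member whose level before hypoxia did not differ between the lines beyond the error. In HepG2 it had 67.6, 67.0 and 61.5 CPM at 0 h, 112, 108.9 and 108.9 CPM at 24 h and 150.3, 151 and 149.6 CPM at 48 h. In APOA4-KO it had 65.7, 62.4 and 67.1 CPM, then 182, 191 and 193 CPM and then 207, 209 and 204 CPM. The lines overlapped at 0 h, and all libraries of APOA4-KO in hypoxia lay above all those of HepG2. The log2 fold change in HepG2 was 0.75 ± 0.036 at 24 h and 1.20 ± 0.036 at 48 h (adjusted p of 9.88e-12 and 1.35e-14). In APOA4-KO it was 1.54 ± 0.037 (adjusted p = 1.58e-16) and 1.67 ± 0.037 (adjusted p = 2.57e-17), and the step of 0.13 ± 0.036 from 24 h to 48 h (adjusted p = 0.00592) was 0.00094 with scaling by library size alone (adjusted p = 0.989). The difference of the lines was -0.0060 ± 0.036 at 0 h (adjusted p = 0.939, 95% interval -0.082 to 0.070), 0.78 ± 0.036 at 24 h and 0.46 ± 0.036 at 48 h (adjusted p of 1.64e-12 and 2.05e-09). The changes from 0 h differed by 0.79 ± 0.051 at 24 h and by 0.47 ± 0.051 at 48 h (adjusted p of 1.27e-09 and 5.24e-07).

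EDN1, the vessel-constricting peptide, peaked at a different time in each line. In HepG2 it had 1.76, 2.36 and 1.72 CPM at 0 h, 14.5, 15.9 and 12.6 CPM at 24 h and 3.49, 2.97 and 3.57 CPM at 48 h. In APOA4-KO it had 2.81, 2.28 and 3.15 CPM at 0 h, 5.23, 4.46 and 3.43 CPM at 24 h and 20.4, 20.3 and 21.9 CPM at 48 h. HepG2 at 24 h and APOA4-KO at 48 h stood apart from each other and from the other 4 groups, whose neighbours in order all overlapped. In HepG2 the rise of EDN1 to 24 h was 7.36-fold, or 2.88 ± 0.17 on the log2 scale (adjusted p = 1.24e-10). EDN1 was then 4.28-fold lower after 48 h than after 24 h (adjusted p = 7.09e-09), and it stayed above its start by 0.78 ± 0.16 (adjusted p = 0.0011). In APOA4-KO it rose by 0.67 ± 0.16 at 24 h and by 2.92 ± 0.16 at 48 h (adjusted p of 0.00164 and 1.94e-11), which is 7.58-fold, with a rise of 2.25 ± 0.16 between 24 h and 48 h (adjusted p = 1.09e-09).

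The lines therefore differed in EDN1 in opposite directions, by -1.71 ± 0.16 at 24 h and 2.64 ± 0.16 at 48 h (adjusted p of 2.19e-08 and 6.17e-11). The changes from 0 h differed by -2.21 ± 0.22 at 24 h and 2.14 ± 0.23 at 48 h (adjusted p of 3.54e-07 and 3.42e-07), the largest absolute values among the members at both times. At 0 h the difference of 0.50 ± 0.16 (adjusted p = 0.0264) was lost without library 1 or library 3 of either line at 0 h, where it was 0.38 to 0.48 and the adjusted p 0.0676 to 0.134, and with these groups fitted alone (adjusted p = 0.0761). The summed level of the hepatocyte markers was 43738 to 44166 CPM, 54271 to 55060 CPM and 49986 to 50270 CPM at 0 h, 24 h and 48 h in HepG2. This sum also peaked at 24 h there. In APOA4-KO the sum was 52095 to 52643 CPM, 68371 to 70628 CPM and 60735 to 63244 CPM, again highest at 24 h and not at 48 h as EDN1 was. Not every marker followed the sum. The mean of HNF4A was lowest at 24 h, with 333, 287 and 343 CPM in HepG2 and 372, 365 and 386 CPM in APOA4-KO. From 0 h to 24 h, 6 of the 7 markers rose and 1 fell in HepG2, where 29.6% of all genes passed. In APOA4-KO 5 rose and 2 did not pass, where 44.4% of all genes passed. The sum of endothelial markers, those of the cells best known for endothelin-1, was lowest in APOA4-KO at 48 h (8.44 to 11.2 CPM). In HepG2 at 24 h it was 14.0 to 15.8 CPM. Of the 4 markers, 1 fell and 3 did not pass from 0 h to 48 h in APOA4-KO, where 49.9% of all genes passed. From 0 h to 24 h in HepG2, 1 rose and 3 did not pass, where 29.6% of all genes passed. The sum of stromal markers was 45.3 to 48.0 CPM in APOA4-KO at 48 h and 48.9 to 53.7 CPM in HepG2 at 24 h. The part of other cell types in EDN1 was not tested.

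The genes whose pattern was most like that of a member were taken by Pearson's r of log2 CPM over the 18 libraries, among 12804 genes whose mean count was at least 100. The 18 libraries are 6 groups of 3, so r mostly compares 6 levels and is a description. For EDN1 they were HGFAC (r = 0.993), the activator of hepatocyte growth factor, AHSG (r = 0.971), a secreted liver glycoprotein, and ICAM1 (r = 0.965), an adhesion molecule. HGFAC went from 10.7 ± 0.550 CPM (SD, n = 3) at 0 h to 22.2 ± 0.445 at 24 h and 13.3 ± 0.546 at 48 h in HepG2, and from 12.4 ± 0.768 to 14.8 ± 0.801 and 24.8 ± 0.385 CPM in APOA4-KO. ICAM1 went from 197 ± 3.33 to 398 ± 14.4 and 214 ± 7.21 CPM in HepG2 and from 183 ± 6.30 to 281 ± 4.06 and 499.7 ± 14.8 CPM in APOA4-KO. Like EDN1, both had their highest level in HepG2 at 24 h and in APOA4-KO at 48 h.

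**Figure D4:**
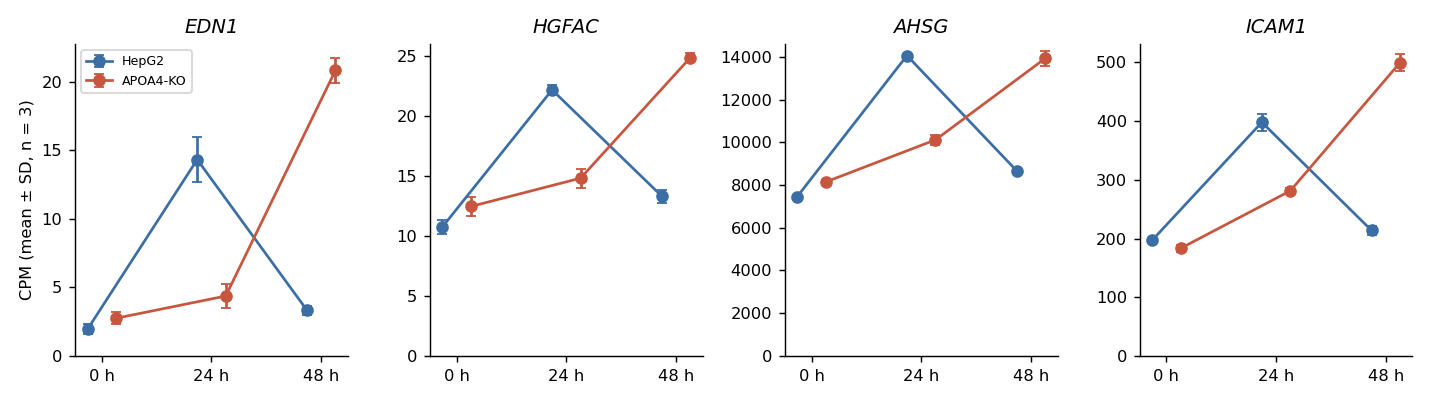
Level in CPM (mean ± SD, n = 3, linear axes from 0) of EDN1 and of the 3 genes with the highest r to it over 18 libraries, by time and line. All 4 genes are highest at 24 h in HepG2 and rise to 48 h in APOA4-KO, while EDN1 starts nearest to 0.

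Among the 3 genes most like VEGFA were BHLHE40 (r = 0.993), a transcriptional repressor, and SMAD3 (r = 0.993), a transducer of TGF-beta signals. ADM was most like ENO2 (r = 0.994) and PFKFB3 (r = 0.990), enzymes of glycolysis, and ZHX2 (r = 0.991). STC2 was most like CITED2 (r = 0.986), a regulator of hypoxia-inducible factors, TM4SF1 (r = 0.985) and NDRG1 (r = 0.983). VEGFB was most like OBSL1 (r = 0.968), SPAG4 (r = 0.949) and the glycolytic enzyme ENO1 (r = 0.948). PGF was most like NUP210 (r = 0.979), FASN (r = 0.965), the fatty acid synthase, and AFMID (r = 0.932). EPO was most like SEPTIN7 (r = 0.956), SCOC (r = 0.954) and PSMC6 (r = 0.953), with a narrower spread over the groups than EPO itself. SEPTIN7 went from 26.8 ± 1.02 CPM in HepG2 at 0 h to 51.2 ± 2.37 CPM in APOA4-KO at 24 h.

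Of the receptors through which the members act, few were detected beyond a trace. Of 14 listed receptors and their subunits, 10 passed the filter. FLT1 and KDR, the receptors of VEGFA, had at most 118 and 48 counts in any library, and each was at 0 in at least 1 HepG2 library. EDNRA and EDNRB, the receptors of EDN1, had at most 31 and 17 counts, and CALCRL, the receptor of ADM, at most 57. In APOA4-KO at 0 h, KDR with 38 to 48 counts and FLT1 with 51 to 99 counts were above their HepG2 levels of at most 13 and 24 counts. Of the 10 receptors tested, 2 were higher in APOA4-KO at 0 h and 1 was lower, where 30.5% of all genes passed. RAMP2, another of those listed, had 156 to 221 counts in APOA4-KO at 0 h and 49 to 99 in HepG2 at 0 h. NRP1, a co-receptor, was 1 of the 2 that were higher, so at most 1 of KDR, FLT1 and RAMP2 passed. The sum of the endothelial markers was 13.6 to 16.3 CPM in APOA4-KO at 0 h and 11.2 to 13.1 CPM in HepG2 at 0 h. Of these 4 markers, 2 were higher in APOA4-KO, 1 was lower and 1 did not pass. EPOR, the receptor of EPO, had 6.38 ± 0.101 CPM in HepG2 at 0 h and 7.15 ± 0.655 CPM in APOA4-KO at 0 h. It fell at 24 h, with a log2 fold change of -0.54 ± 0.12 in HepG2 and -0.91 ± 0.12 in APOA4-KO (adjusted p of 0.00171 and 3.84e-06), and at 48 h its changes of -0.29 and -0.096 did not pass.

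The neuropilins, which are co-receptors of VEGFA, differed between the lines in opposite directions. The difference of NRP1 was largest at 48 h and that of NRP2 was smallest then. NRP1 was higher in the edited line, with log2 fold differences of 0.91 ± 0.055, 1.16 ± 0.055 and 1.52 ± 0.056 at 0 h, 24 h and 48 h (adjusted p of 2.86e-10, 2.6e-12 and 4.53e-14). NRP2 was lower there, with differences of -0.78 ± 0.068, -0.88 ± 0.069 and -0.28 ± 0.069 (adjusted p of 4.65e-08, 3.19e-09 and 0.00176). Of the 10 receptors tested, 3 were higher and 1 lower in APOA4-KO at 48 h, with a median of 0.66 that rests on genes of few counts. In HepG2, 2 rose and 2 fell at 24 h and 2 fell at 48 h, and in APOA4-KO 1 rose and 2 fell at 24 h and 1 rose and 1 fell at 48 h. Of all genes, 50.8% passed between the lines at 48 h, 29.6% and 27.7% in HepG2 and 44.4% and 49.9% in APOA4-KO, so these counts do not set the receptors apart.

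The peptides need enzymes for their maturation, and 9 of 13 listed relatives and enzymes passed the filter. PAM, which amidates adrenomedullin and so activates it, was above its level at 0 h in all hypoxic groups. Unlike ADM, it fell from 24 h to 48 h in HepG2, by 0.39 ± 0.037 on the log2 scale (adjusted p = 1.31e-07), and in APOA4-KO the change of 0.0039 ± 0.036 over that time did not pass (adjusted p = 0.952). Its level went from 51.3 ± 0.949 CPM at 0 h to 99.1 ± 2.88 at 24 h and 75.5 ± 2.76 at 48 h in HepG2, and from 66.3 ± 3.62 to 176 ± 0.947 and 177 ± 1.44 CPM in APOA4-KO. PAM was higher in APOA4-KO at 48 h by 1.23 ± 0.037 (adjusted p = 2.35e-15), and its change to 48 h was larger there by 0.86 ± 0.052 (adjusted p = 2.08e-10). ECE1, which cuts the precursor of endothelin-1, had 245 ± 0.808, 219.8 ± 0.690 and 212 ± 1.53 CPM in HepG2 and 183 ± 1.47, 165 ± 10.5 and 195 ± 7.12 CPM in APOA4-KO. FURIN, a protease of the secretory pathway that cuts many precursors, fell at 24 h, with changes of -0.66 ± 0.029 in HepG2 and -0.57 ± 0.030 in APOA4-KO (adjusted p of 3.19e-12 and 9.03e-12), while at 48 h its changes of -0.015 and 0.0041 did not pass, with adjusted p of 0.794 and 0.929. FURIN was lower in APOA4-KO at all 3 times, with differences of -1.43 ± 0.030, -1.34 ± 0.030 and -1.41 ± 0.030 (adjusted p of 8.42e-17, 7.82e-17 and 1.54e-17). PCSK7, a related protease, was lower in APOA4-KO at 48 h, with a difference of -1.79 ± 0.046 (adjusted p = 2.39e-16). Over the whole list, 1 rose and 3 fell in HepG2 at 24 h, 1 rose and 2 fell at 48 h, and in APOA4-KO 1 rose and 4 fell at 24 h and 2 rose and 3 fell at 48 h. Against HepG2, APOA4-KO was higher in 1 and lower in 4 of the 9 at 48 h. Of all genes, 29.6%, 27.7%, 44.4%, 49.9% and 50.8% passed in these 5 comparisons, so these counts do not set the list apart.

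The wider set of 23 genes listed as hypoxic secreted factors had 21 that were tested. Whether the product of each listed gene, FGF11 among them, is secreted was not examined. In HepG2, 14 of them rose and 2 fell at 24 h, and 10 rose and 4 fell at 48 h, with medians of 0.74 and 0.39. In APOA4-KO, 13 rose and 1 fell at 24 h and 16 rose and 2 fell at 48 h, with medians of 0.54 and 1.00. The shares of all genes that passed were 29.6% and 27.7% in HepG2 and 44.4% and 49.9% in APOA4-KO. Among the 4 largest changes past both limits in HepG2 at 48 h was that of FGF11 (1.85 ± 0.096, adjusted p = 4.23e-11). Those of ANGPTL4 (1.71 ± 0.066, adjusted p = 5.4e-13), an inhibitor of lipoprotein lipase, and LOX (1.57 ± 0.031, adjusted p = 2.32e-17), which crosslinks collagen, were also among them. In APOA4-KO at 48 h, the 4 largest included those of IGFBP3 (4.85 ± 0.077, adjusted p = 2.15e-19), a binding protein of insulin-like growth factors, the platelet growth factor PDGFB (3.18 ± 0.055, adjusted p = 7.31e-19) and CCN1 (3.13 ± 0.058, adjusted p = 1.83e-18), a matrix protein. The change to 48 h was larger in APOA4-KO for 11 of the 21 by a difference that passed, led by IGFBP3 (4.09 ± 0.11), CCN1 (3.39 ± 0.079), GDF15 (3.00 ± 0.039) and PDGFB (2.64 ± 0.074), with adjusted p of 1.67e-15, 4.52e-16, 1.01e-19 and 5.77e-15. At 24 h it was larger for 5 and smaller for 5, where 32.2% of all genes passed, and at 48 h 36.4% did.

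**Figure D5:**
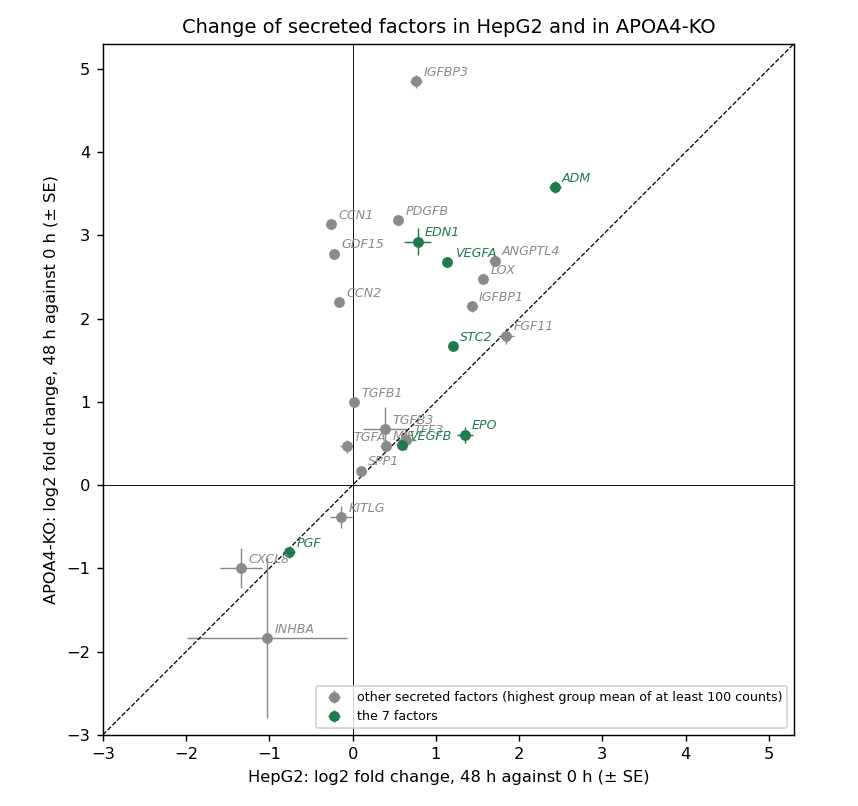
Log2 fold change at 48 h against 0 h (± SE, linear axes) in HepG2 and in APOA4-KO, for the 7 genes and for 18 of the other genes listed as secreted factors. Each of the 18 had a highest group mean of at least 100 counts, and the dashed line marks equal change. EPO lies below the line at 1.35 and 0.60, VEGFB and PGF lie near it, and ADM, STC2, VEGFA and EDN1 lie above it.

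Of 19 hypoxia-inducible factors and other regulators of EPO and VEGFA, all tested, 2 rose and 10 fell in HepG2 at 24 h and 2 rose and 8 fell at 48 h, while in APOA4-KO 6 rose and 5 fell at 24 h and 10 rose and 3 fell at 48 h. The shares of all genes that passed were 29.6%, 27.7%, 44.4% and 49.9%. The change to 48 h was more positive in APOA4-KO for 10 of the 19, where 36.4% of all genes passed in either direction. EPAS1, the hypoxia-inducible factor to which EPO responds in many cells, went from 386 ± 1.71 to 427 ± 8.77 and 486 ± 5.83 CPM in HepG2 and from 272 ± 4.09 to 556 ± 1.67 and 743 ± 9.85 CPM in APOA4-KO. Its change was larger in APOA4-KO by 0.89 ± 0.026 at 24 h and 1.12 ± 0.026 at 48 h (adjusted p of 2.23e-14 and 4.77e-16). HIF1A had 105 ± 0.257, 85.6 ± 1.79 and 111 ± 4.88 CPM in HepG2 and 86.3 ± 6.52, 141 ± 2.69 and 127 ± 2.61 CPM in APOA4-KO, and its change at 24 h was larger in APOA4-KO by 1.00 ± 0.061 (adjusted p = 6.21e-10). NR2F1, an orphan nuclear receptor, was higher in APOA4-KO by 1.85 ± 0.048 at 48 h (adjusted p = 2.87e-16). These are RNA levels, and the proteins of hypoxia-inducible factors are controlled mainly by degradation.

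For comparison, 20 genes that commonly report hypoxia, and that hold no member, were all tested. In HepG2, 18 rose at 24 h and 2 did not pass, and all 20 rose at 48 h, while in APOA4-KO all 20 rose at both times. Their median log2 fold change was 0.86 and 1.45 in HepG2 and 1.46 and 1.53 in APOA4-KO, beside the members' medians of 0.75 and 1.14 and of 0.75 and 1.67. Of 15 genes of the ATF4 stress response, 3 rose and 6 fell in HepG2 at 24 h and 2 rose and 11 fell at 48 h, and 3 rose and 8 fell in APOA4-KO at 24 h and 4 rose and 7 fell at 48 h. Beside both lists, 29.6% and 27.7% of all genes passed in HepG2 and 44.4% and 49.9% in APOA4-KO. Of the 7 hepatocyte markers, 7 were higher in APOA4-KO at 48 h, where 50.8% of all genes passed, while 6 were higher and 1 lower at 24 h and at 0 h, where 48.1% and 30.5% passed.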

How the data were processed

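Poly(A) RNA of 18 samples was sequenced in paired reads. The authors trimmed reads and aligned them to the human genome, and the deposited table holds unnormalized counts per gene. Their processing notes name fastp, HISAT2, StringTie and GRCh38.p13, whereas the study's methods name featureCounts for the counting, and the setting for strand and for reads that map to several places is not given in the sources used here. The deposited FPKM, which the authors scaled by gene length and library size, cover 33601 genes and were used for levels between genes only. Of 61806 genes, 28200 had no count.

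Members and gene lists were chosen with earlier results of these data known. Counts were fitted with edgeR 4.0.16 in R 4.3.3 (quasi-likelihood, TMM scaling, filterByExpr over 6 groups), with 1 mean per group over all 18 libraries, and 11 comparisons were drawn from it. The spread was estimated over all groups together. P-values were adjusted by Benjamini-Hochberg over all 19743 genes tested, and the limits were an adjusted p of 0.05 and an absolute log2 fold change of 1. The SE is that of the log2 fold change. The scripts recovered known changes when tested on simulated data. All members are named, as are at most 4 genes of another list, those with the largest change past both limits and a mean count of 100 or more in whichever group was higher, besides receptors and enzymes of the members. Likeness used log2 CPM with a prior count of 2. A gene that this rule names is not reported here.

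The libraries held 76481820 to 91604947 counts in total, and no pair of libraries was identical. Among the members, the SE was largest for EDN1. Same-numbered libraries did not deviate together, so no pairing was used. Alternatives were other scalings (RLE, library size alone), no filter, a replicate block, DESeq2 1.42.0, the groups of a comparison alone, no limit on the fold change, and leaving out each replicate. Promoter windows came from RefSeq and gene positions from GENCODE 29.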

Additional observations from a re-analysis of the deposited data

Results flagged for a closer look

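Each value here is the log2 change from 0 h in APOA4-KO minus that in HepG2, from edgeR with Benjamini-Hochberg adjustment, and all passed the test of the difference itself. For EPO the difference was 0.61 for 24 h and -0.74 for 48 h, where the adjusted p were 0.00181 and 0.000229, so that its direction turned. For EDN1 it was -2.21 for 24 h and 2.14 for 48 h, where the adjusted p were 3.54e-07 and 3.42e-07, a turn the other way. For VEGFA it was 0.78 for 24 h and 1.54 for 48 h, where the adjusted p were 9.63e-10 and 3.4e-14. ADM had 1.44 (adjusted p = 2.87e-09) and 1.15 (adjusted p = 2.13e-08), and STC2 had 0.79 (adjusted p = 1.27e-09) and 0.47 (adjusted p = 5.24e-07). VEGFB with -0.32 (adjusted p = 0.00217) and PGF with -0.61 (adjusted p = 7.85e-05) passed at 24 h but not at 48 h. Groups of 3 are too small to look for a library far from the others.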

How the results depend on the processing

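With no limit on the fold change, the members that passed numbered 6, 7 and 6 in HepG2 (24 h and 48 h against 0 h, 48 h against 24 h), 7, 7 and 6 in APOA4-KO, 6 between the lines at 0 h and 6 at 48 h, and 7 and 5 where the changes to 24 h and to 48 h were compared between lines. With scaling by library size alone, 1 member passed both limits in HepG2 at 24 h and 1 in APOA4-KO from 24 h to 48 h, with ADM lost in each. Leaving out each replicate moved the count in HepG2 at 24 h between 1 and 2, with 1 reached without the first HepG2 library at 24 h, where ADM was lost. With the groups fitted alone VEGFA also passed both limits there (1.01). Values near 0 changed sign. STC2 between the lines at 0 h was 0.022 with RLE, 0.017 with library size alone, 0.016 with DESeq2 and 0.024 with the groups alone, and -0.052 to 0.021 when each replicate was left out. EPO between the lines at 48 h was 0.014 with RLE, 0.0016 with DESeq2 and -0.069 to 0.018 when each replicate was left out. VEGFB between the lines at 24 h spanned -0.0087 to 0.052, and PGF in the difference of the changes to 48 h -0.12 to 0.0017, when each replicate was left out. None of these 4 passed in the fit reported.

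Library size alone moved the median of all genes by -0.16 in APOA4-KO at 48 h against 0 h, -0.13 from 24 h to 48 h, -0.15 between the lines at 48 h and -0.17 in the difference of the changes to 48 h. The share of higher genes among those past both limits fell from 43.8% to 30.4%, from 35.6% to 21.9%, from 47.0% to 34.0% and from 46.2% to 27.8% in these, and went from 32.5% to 44.7% in HepG2 from 24 h to 48 h. With it EPO from 24 h to 48 h in APOA4-KO passed (-0.28, adjusted p = 0.0247), as did VEGFB in HepG2 (0.20, adjusted p = 0.00454). The replicate block kept the call and direction of all 77 member values, with 2 members past both limits in HepG2 at 24 h. The 45 same-numbered pairs had correlations of -0.14 to 0.051, so the numbers were not taken as a pairing. The cause of the changes was not tested.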
